A study of Mus musculus with 6 samples.

Results

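The genes described here are the ligands, receptors, Smads, extracellular antagonists and ID targets of the transforming growth factor beta (TGF-beta) and bone morphogenetic protein (BMP) pathways in mouse lung endothelial cells (ECs). They were chosen by gene symbol alone, and 65 of the 24063 symbols in the count tables matched. ECs had been isolated with magnetic beads carrying an antibody to CD31 from lungs of male C57BL6 mice, aged 8 weeks by the labels and older by the methods of the study. The sham group had a sham operation, and the PNX group was examined 7 days after removal of the left lung (unilateral pneumonectomy, PNX). RNA from 2 mice was pooled for each of 3 libraries per group, and no mutant allele or drug was involved. Replicates 1 and 2 of each group were labelled as re-used from an earlier deposit, and replicate 3 came from a later one. Counts of replicates 1 and 2 differed by little more than counting error (chi-square per degree of freedom of 1.75 in sham and 1.57 in PNX, against 67.9 to 86.4 for pairs with replicate 3), so they were summed and counted as 1 sample. This left 2 samples per group.

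Ligands of this family bind pairs of type I and type II receptor kinases. TGF-beta and activin receptors phosphorylate Smad2 and Smad3, and BMP receptors phosphorylate Smad1, Smad5 and Smad9. Both sets join Smad4 to regulate genes, while Smad6, Smad7 and the ubiquitin ligases Smurf1 and Smurf2 limit the signal. In ECs, the type I receptor ALK1 (gene Acvrl1), the type II receptor BMPR2 and the co-receptor endoglin (Eng) bind BMP9 and BMP10, and inherited loss of these receptors is known to cause hereditary hemorrhagic telangiectasia or pulmonary arterial hypertension. Chordin, noggin and follistatin are secreted proteins that hold ligands away from receptors.

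Total counts were 29526989 to 81282871 per library and were lowest in replicate 3 of each group. Of the 65 members, 57 had enough counts to be tested. Without regard to the deposit, 0 of the 57 members passed an adjusted p under 0.01 with a log2 fold change above 1 in size (edgeR's quasi-likelihood test, Benjamini-Hochberg adjustment), and neither did any of the 16598 genes tested (0.0%). In that fit the lowest adjusted p of a member was 0.0738, for Fstl1. An unadjusted p under 0.05 was found for 10 of the 57 members and for 2076 of the 16598 genes (12.5%). DESeq2 on the same samples called 1 member, Fstl1, and 3.35% of all genes, and limma-voom called 0. With the 6 libraries taken as separate replicates, edgeR called 1 member, Fstl1, against a background of 2.51%, and DESeq2 called 3, Fstl1, Gdf6 and Inhba, against 5.3%. With the deposit as a replicate block, 3 members (5.26%) passed the same thresholds, against 5.12% of all genes, a share close to that background. At an adjusted p under 0.05 with the block, at any fold, 21 members (36.8%) passed, against 21.6% of all genes. Among the 21, 9 were higher in PNX (background 11.5%) and 12 were lower (background 10.1%). These 2 shares of all genes are also the background for every count of increased or decreased genes below. Below, "increased" and "decreased" mean an adjusted p under 0.05 with the replicate block, and every log2 fold change is PNX against sham in that fit, with its standard error (SE). No member passed in the fit without the block, and an exact permutation test of 2 samples against 2 cannot give a two-sided p below 0.333. The p-values without the block measure the spread between samples of a group, each from pooled mice. Those of the blocked fit measure how far the difference between groups disagreed between the 2 deposits. That fit leaves 1 residual degree of freedom per gene and borrows information on spread from all genes. Levels are CPM, counts scaled to the size of the library, in the order of replicates 1, 2 and 3. In RNA of a whole cell isolate, fewer cells of a type and less RNA per cell cannot be told apart.

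The promoters of 5 members are shown here, because they include Chrd and Inhba, which increased, and Eng, Acvr2a and Smad9, which decreased. Each is the 250 bases before the RefSeq start (GRCm38.p6), overlaps no exon annotated in GENCODE vM21, and is written 5′ to 3′. Capitals mark GGCGCC, a BMP Smad element, and CAGAC or its reverse complement GTCTG, which holds the core of the Smad box.
Chrd, chr16:20732877-20733126, plus strand: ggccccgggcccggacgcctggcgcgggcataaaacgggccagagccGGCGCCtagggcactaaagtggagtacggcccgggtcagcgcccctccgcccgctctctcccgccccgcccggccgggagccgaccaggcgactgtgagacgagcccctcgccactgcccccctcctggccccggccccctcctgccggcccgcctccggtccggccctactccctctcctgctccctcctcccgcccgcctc
Inhba, chr13:16011601-16011850, plus strand: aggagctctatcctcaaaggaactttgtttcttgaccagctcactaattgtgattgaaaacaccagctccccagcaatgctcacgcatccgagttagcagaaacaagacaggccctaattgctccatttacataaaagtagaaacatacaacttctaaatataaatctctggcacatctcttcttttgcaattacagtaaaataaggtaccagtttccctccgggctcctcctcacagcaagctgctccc
Eng, chr2:32646345-32646594, plus strand: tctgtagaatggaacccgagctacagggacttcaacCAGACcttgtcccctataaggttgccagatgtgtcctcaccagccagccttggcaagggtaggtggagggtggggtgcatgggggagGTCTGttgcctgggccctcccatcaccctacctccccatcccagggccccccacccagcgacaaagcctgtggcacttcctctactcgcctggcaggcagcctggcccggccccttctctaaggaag
Acvr2a, chr2:48813859-48814108, plus strand: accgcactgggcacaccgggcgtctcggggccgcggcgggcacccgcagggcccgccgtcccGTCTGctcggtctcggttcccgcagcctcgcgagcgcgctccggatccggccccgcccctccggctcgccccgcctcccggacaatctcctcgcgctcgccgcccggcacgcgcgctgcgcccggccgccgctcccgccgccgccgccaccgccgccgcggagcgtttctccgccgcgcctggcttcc
Smad9, chr3:54755332-54755581, plus strand: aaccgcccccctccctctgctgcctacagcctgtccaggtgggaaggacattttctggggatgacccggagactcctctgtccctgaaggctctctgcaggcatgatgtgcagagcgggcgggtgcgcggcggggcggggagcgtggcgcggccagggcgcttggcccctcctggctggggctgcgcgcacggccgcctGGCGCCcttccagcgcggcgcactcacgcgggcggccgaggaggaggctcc
GGCGCC, which reads the same on both strands, is present once each in the Chrd and Smad9 windows, and the Smad box letters once in Acvr2a and 2 times in Eng. The Inhba window holds neither. Of the 54 windows of the 46 members in the table, 11 (20.4%) hold GGCGCC against 9.59% of all 32851 windows, and 26 (48.1%) hold CAGAC or GTCTG against 42.2%. GGCGCC consists of G and C only, and the share of G and C in the windows shown ran from 43.2% (Inhba) to 82.0% (Acvr2a). The motif shares were not adjusted for this content or for genes with several windows. These matches are letters in a window and do not show binding.

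The members differed over several orders of magnitude in level. On the TPM scale (which divides by transcript length and library size), the mean over the 6 libraries was 3044 for Acvrl1 and 1776 for Eng when their transcripts were summed. Both genes have several overlapping transcripts, and if a shared read was counted on each, these sums are too high. The transcript with the highest count alone had a mean of 603 TPM for Acvrl1 and 576 TPM for Eng, and these remained the 2 highest members. Id3 (388 TPM) and Id1 (253 TPM), transcription regulators induced by BMP receptors, came next among genes with 1 transcript, followed by Bmp6 (168 TPM), Bmpr2 (147 TPM), Smad6 (142 TPM) and Fstl1 (120 TPM). Among receptors for TGF-beta itself, Tgfbr2 was at 297 TPM summed and 147 TPM for its top transcript, and Tgfbr1 was at 29.9 TPM.

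**Figure D1:**
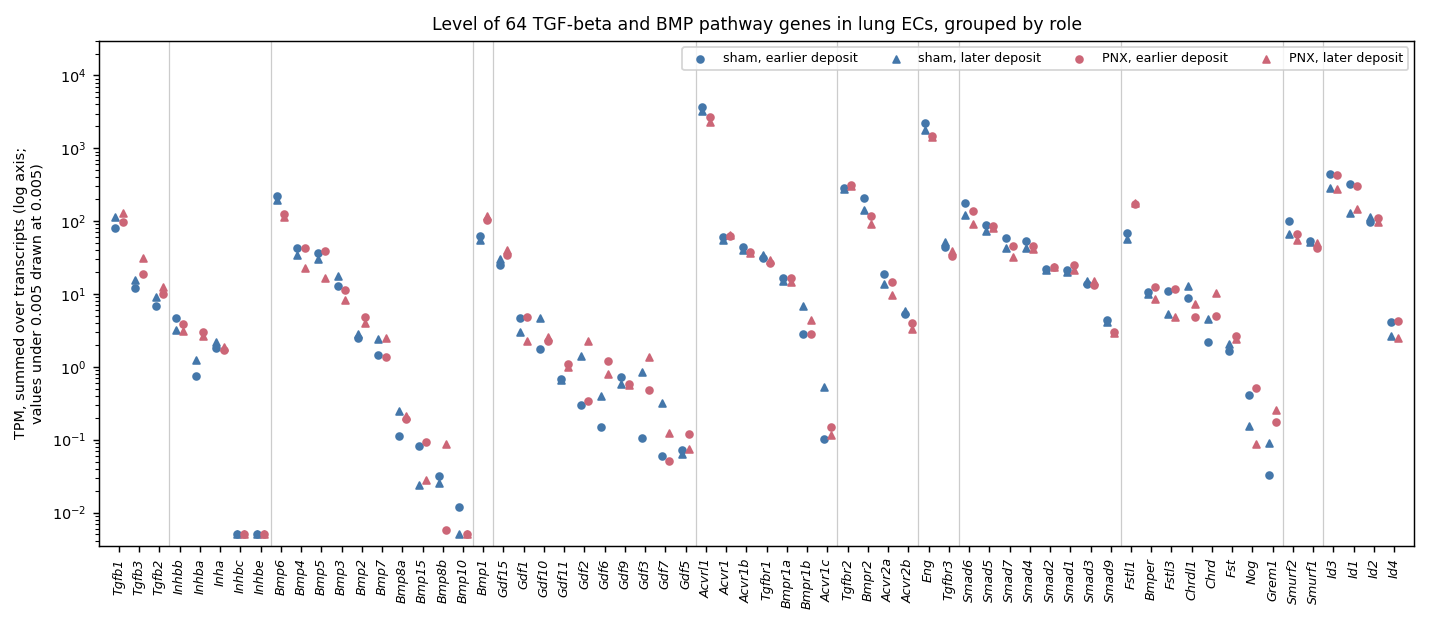
Level of 64 of the 65 members in TPM on a log axis, grouped by role, with circles for the earlier deposit (replicates 1 and 2 together), triangles for the later one, blue for sham and red for PNX. Acvrl1 and Eng lie above the other members, and Inhbc and Inhbe are at 0, drawn at the bottom of the axis.

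Among TGF-beta ligands, Tgfb2 and Tgfb3 increased and Tgfb1, the most abundant of these ligands, did not pass the test. Tgfb3 was at 16.1, 15.8 and 20.9 CPM in sham, against at 25.0, 26.9 and 42.2 CPM in PNX. Each PNX library was above each sham library, and both groups were highest in the later deposit. Its log2 fold change was 0.85 (SE 0.113, adjusted p = 0.00252), or 1.80-fold. Tgfb2 was at 13.0, 12.6 and 17.4 CPM in sham, against 17.9, 20.4 and 23.3 CPM in PNX (log2 fold change 0.50, SE 0.0964, adjusted p = 0.0112). Tgfb1, the form released by platelets and many other cells, was at 65.6, 68.1 and 95.3 CPM in sham, against 83.0, 84.3 and 107 CPM in PNX, so the groups overlapped. Its log2 fold change was 0.25 with a 95% interval of 0.06 to 0.44 (adjusted p = 0.0678). Antisense or unclassified transcripts overlap exons of Tgfb2 and Tgfb3 in GENCODE vM21, and since counting is not stated to have used strand, their reads cannot be told apart from those of the ligands.

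Of 5 activin and inhibin subunits, Inhba, the beta A chain that forms activin A, increased. It was at 0.546, 0.349 and 0.772 CPM in sham, against 1.59, 2.07 and 1.58 CPM in PNX, with no overlap between groups. The log2 fold change was 1.61 (SE 0.313, adjusted p = 0.0115), or 3.06-fold, on 25 to 44 counts per sham library and 47 to 136 per PNX library. Inhbb, the more abundant beta B chain, was at 7.64, 7.93 and 5.46 CPM in sham, against 6.41, 6.97 and 5.13 CPM in PNX (log2 fold change -0.17, 95% interval -0.50 to 0.16). Inha, the inhibin alpha chain, had a log2 fold change of -0.12 (95% interval -0.73 to 0.48). Inhbc and Inhbe had no count in any library, which allows up to 0.0369 to 0.102 CPM per library (3 counts, for counting error only).

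Among 10 BMP genes named as ligands, Bmp6 decreased and Bmp2 increased. Bmp6 (chr13:38345107-38500302) was by far the most abundant of them. It was at 209, 211 and 191 CPM in sham, against 122, 124 and 108 CPM in PNX. Every PNX library was below every sham library, and the log2 fold change was -0.80 within each deposit. In the blocked fit it was also -0.80 (SE 0.0820, adjusted p = 0.000797), so PNX was at 57.5% of sham. Exons of Txndc5 on the opposite strand overlap Bmp6. Bmp2, which acts through the same type I receptors as Bmp4, was at 3.29, 3.63 and 3.98 CPM in sham, against 7.02, 6.88 and 5.57 CPM in PNX (log2 fold change 0.78, SE 0.174, adjusted p = 0.0197). Its log2 fold change was 0.99 within the earlier deposit and 0.51 within the later one.

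The other BMP ligands did not pass. Bmp4, a regulator of lung branching, was at 33.2, 33.7 and 27.1 CPM in sham, against 35.2, 34.0 and 17.8 CPM in PNX, so only the later PNX library was below the sham libraries. Its log2 fold change was 0.03 within the earlier deposit and -0.58 within the later one. Bmp5 had the same arrangement, with 0.10 and -0.84. Bmp3, which opposes other BMPs in bone, had -0.21 and -1.07 and a blocked log2 fold change of -0.60 (95% interval -1.05 to -0.15, adjusted p = 0.0630). The 3 genes had lower values in the library in which the alveolar epithelial markers were lowest. Those 11 markers, surfactant genes among them, all decreased, none was at 0, and their summed level was 7151 to 9306 CPM in sham, against 2519 to 6400 CPM in PNX, lowest in PNX replicate 3. Their part in these values was not tested. Bmp7 had a log2 fold change of -0.02 (95% interval -0.46 to 0.43). Bmp8a was at 0.0744 to 0.238 CPM, and reads may be shared with its close copy Bmp8b, which was not tested. Bmp10, the circulating partner of BMP9, had 1 count in all, and Bmp15 had 1 to 9 counts per library, so neither was tested.

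Bmp1 carries a BMP name but encodes a metalloproteinase that trims procollagen and cleaves chordin. It increased, at 99.6, 102 and 89.0 CPM in sham, against 168, 173 and 191 CPM in PNX. The groups did not overlap, and the log2 fold change was 0.93 (SE 0.111, adjusted p = 0.00162), or 1.90-fold.

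Of 10 growth differentiation factors (GDFs), 8 were tested and 2, Gdf6 and Gdf15, increased. Gdf6, a BMP-like ligand of joints and eye, was at 0.223, 0.195 and 0.564 CPM in sham, against 1.94, 1.54 and 1.11 CPM in PNX. The groups did not overlap, but the log2 fold change was 3.03 within the earlier deposit and 1.00 within the later one. The blocked value was 2.24 (SE 0.479, adjusted p = 0.0169), or 4.73-fold, on 14 to 19 counts per sham library, and without PNX replicate 1 the adjusted p was 0.0558. Gdf15, a stress-induced hormone, was at 10.8, 10.5 and 13.1 CPM in sham, against 14.4, 15.8 and 17.3 CPM in PNX (log2 fold change 0.45, SE 0.102, adjusted p = 0.0204). Gdf2, which encodes BMP9, was at 0.422, 0.279 and 1.66 CPM in sham, against 0.511, 0.320 and 2.65 CPM in PNX, and the difference between deposits exceeded that between groups. Gdf3 had a log2 fold change of 1.44 that did not pass (95% interval 0.37 to 2.51, adjusted p = 0.0619). Gdf1, whose exons overlap Cers1 on its own strand, had -0.12 (95% interval -0.60 to 0.36). Gdf9, Gdf10 and Gdf11 had log2 fold changes of -0.23, -0.20 and 0.67, with none passing. Gdf5 and Gdf7 had 2 to 12 and 2 to 6 counts per library and were not tested.

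**Figure D2:**
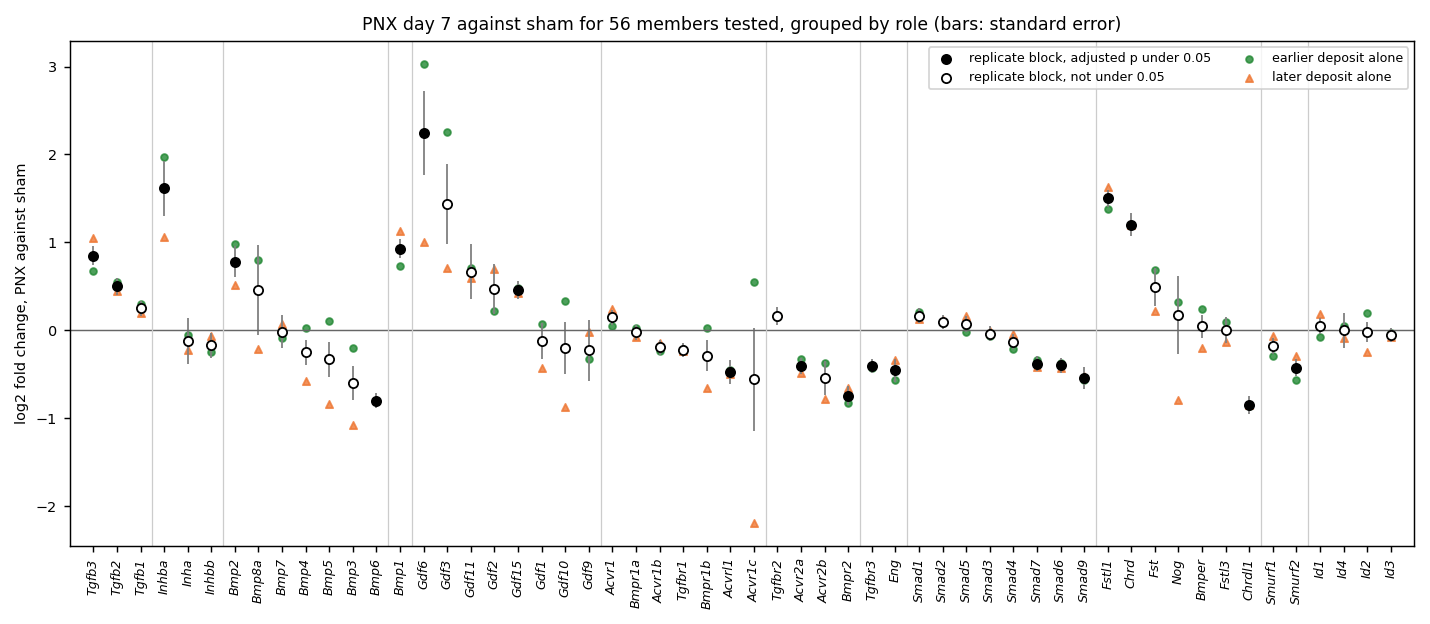
Log2 fold change of PNX against sham for 56 of the 57 tested members, grouped by role; black circles are the blocked fit with SE bars (filled at an adjusted p under 0.05), and green circles and orange triangles are the earlier and later deposit alone. Bmp6, Chrd and Chrdl1 have nearly the same value in both deposits, while Gdf6 and Inhba differ between them.

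The receptors of the BMP branch that are most abundant in ECs decreased together. Among 11 type I and type II receptors, 3 decreased (Acvrl1, Bmpr2 and Acvr2a) and 0 increased, and both co-receptors, Eng and Tgfbr3, decreased. Bmpr2 (chr1:59763400-59879014) was at 939, 875 and 638 CPM in sham, against 523, 519 and 398 CPM in PNX. All PNX libraries were below all sham libraries, and in both groups the later deposit was lowest. The log2 fold change was -0.74 (SE 0.106, adjusted p = 0.00345), so PNX was at 59.8% of sham. No annotated exon of another gene overlaps Bmpr2.

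Acvrl1 (chr15:101128522-101145336), which encodes ALK1, was at 5227, 5293 and 4772 CPM in sham, against 3897, 3902 and 3318 CPM in PNX. The groups did not overlap (log2 fold change -0.48, SE 0.138, adjusted p = 0.0476). Eng (chr2:32646595-32682669) was at 3046, 3084 and 2491 CPM in sham, against 2111, 2099 and 1932 CPM in PNX, with no overlap (log2 fold change -0.45, SE 0.132, adjusted p = 0.0492). Both adjusted p values lie close to 0.05, and over 11 fits with the block Acvrl1 passed in 9 and Eng in 10. Without sham replicate 2 the adjusted p of Acvrl1 was 0.0510. Reads of both genes may be counted on several transcripts, and exons of Gm16031 overlap Acvrl1 and exons of Fpgs overlap Eng on the opposite strand. Tgfbr3, the betaglycan co-receptor that presents TGF-beta2, was at 106, 106 and 125 CPM in sham, against 81.0, 79.2 and 93.6 CPM in PNX (log2 fold change -0.41, SE 0.0784, adjusted p = 0.0111). Acvr2a, a type II receptor for activins and BMPs, was at 43.6, 39.9 and 31.5 CPM in sham, against 34.2, 33.4 and 22.0 CPM in PNX. These ranges overlap, since sham replicate 3 was below the earlier PNX libraries, and the log2 fold change was -0.40 (SE 0.0896, adjusted p = 0.0192).

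The TGF-beta receptors themselves did not pass. Tgfbr2 was at 532, 535 and 522 CPM in sham, against 601, 610 and 576 CPM in PNX, without overlap, but its log2 fold change was 0.16 with a 95% interval of -0.07 to 0.39. Tgfbr1, which encodes ALK5, was at 72.4, 67.0 and 78.3 CPM in sham, against 61.9, 60.7 and 65.4 CPM in PNX (log2 fold change -0.22, 95% interval -0.41 to -0.04, adjusted p = 0.0874). The type I receptor Acvr1 had a log2 fold change of 0.15 (95% interval -0.06 to 0.35), Acvr1b -0.19 (-0.39 to 0.00) and Bmpr1a -0.02 (-0.22 to 0.18). Acvr2b, at 2.25 to 3.95 CPM, had -0.54 (-0.996 to -0.09, adjusted p = 0.0872). Acvr1c and Bmpr1b were low, at 0.335 to 1.87 and 4.76 to 14.5 CPM, and both were highest in sham replicate 3. Acvr1c had a log2 fold change of 0.55 within the earlier deposit and -2.19 within the later one.

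These receptor values stand beside those of 12 endothelial markers, of which none was at 0 and 1, the angiopoietin receptor gene Tek, decreased (log2 fold change -0.51, SE 0.114, adjusted p = 0.0192). Of all genes, 10.1% decreased. The median of the list was -0.17 and 9 of its 12 fitted values were below 0. Summed, the list was at 9668 to 11759 CPM in sham, against 8781 to 9939 CPM in PNX. Pecam1, the gene for CD31, had a log2 fold change of 0.02 and Cdh5, the endothelial cadherin gene, -0.15. Kdr (-0.33), Egfl7 (-0.33) and Robo4 (-0.31) were lower without passing, and Emcn had the highest value (0.29). All PNX libraries were below all sham libraries for 5 of the 12 markers and above them for 1, against 17.9% and 18.8% of all genes. The part of EC content in the receptor values was not tested.

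Among the 8 Smads, the 2 inhibitory members Smad6 and Smad7 decreased, as did Smad9, and none increased. Smad6, which opposes BMP receptors, was at 207, 214 and 147 CPM in sham, against 164, 168 and 107 CPM in PNX. The groups overlapped because sham replicate 3 was below the earlier PNX libraries. The log2 fold change was -0.37 within the earlier deposit, -0.43 within the later one and -0.40 in the blocked fit (SE 0.0824, adjusted p = 0.0147). Smad7, which opposes both branches, was at 102, 103 and 76.9 CPM in sham, against 82.2, 83.3 and 56.4 CPM in PNX (log2 fold change -0.38, SE 0.0804, adjusted p = 0.0165), with the same overlap. Smad9, a BMP-branch Smad of low level here, was at 9.39, 9.42 and 8.97 CPM in sham, against 6.19, 6.81 and 6.14 CPM in PNX (log2 fold change -0.54, SE 0.127, adjusted p = 0.0234), without overlap.

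The other receptor-activated Smads and Smad4 did not pass, and their intervals were narrow in the blocked fit. The log2 fold change was 0.17 for Smad1 (95% interval -0.04 to 0.38) and 0.07 for Smad5 (-0.14 to 0.28), the most abundant Smad of the BMP branch, at 197 to 239 CPM. It was 0.10 for Smad2 (-0.09 to 0.28) and -0.04 for Smad3 (-0.24 to 0.16). Smad4, the shared partner, had -0.13 (-0.33 to 0.07). Smurf2, a ligase that marks Smads and receptors for degradation, decreased. It was at 212, 207 and 144 CPM in sham, against 145, 145 and 116 CPM in PNX (log2 fold change -0.43, SE 0.0958, adjusted p = 0.0198), and sham replicate 3 overlapped the PNX range. Smurf1 had -0.18 (95% interval -0.39 to 0.03).

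Among extracellular antagonists and modulators, Fstl1 and Chrd increased and passed the stricter thresholds, and Chrdl1 decreased at a smaller fold. Fstl1 (chr16:37776873-37836514) encodes a secreted follistatin-like glycoprotein that binds BMP4 and is required for lung development. It was at 96.0, 97.1 and 82.6 CPM in sham, against 257, 253 and 251 CPM in PNX. The PNX libraries lay within a narrow range far above all sham libraries. The mean was 89.8 CPM ± 11.3 (SD, n = 2) in sham and 254 CPM ± 0.428 (SD, n = 2) in PNX. The log2 fold change was 1.50 (SE 0.0976, adjusted p = 8.71e-05), or 2.83-fold, and no annotated exon of another gene overlaps it.

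Chrd (chr16:20733127-20742384) encodes chordin, which binds BMP2 and BMP4. It was at 2.83, 2.93 and 5.94 CPM in sham, against 6.22, 7.32 and 13.4 CPM in PNX. All PNX libraries were above all sham libraries, though PNX replicate 1 barely exceeded sham replicate 3, and in each group the later deposit was highest. The log2 fold change was 1.20 within each deposit and 1.20 in the blocked fit (SE 0.134, adjusted p = 0.00120), or 2.30-fold. Its 2 transcripts carry identical counts, so each read is likely counted on both and the level is then too high, though not the fold. Exons of Thpo on the opposite strand overlap Chrd.

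Chrdl1, chordin-like 1, was at 13.9, 14.6 and 21.5 CPM in sham, against 7.83, 8.20 and 11.7 CPM in PNX (log2 fold change -0.85, SE 0.103, adjusted p = 0.00171), without overlap and with -0.86 and -0.85 in the earlier and later deposit.

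**Figure D3:**
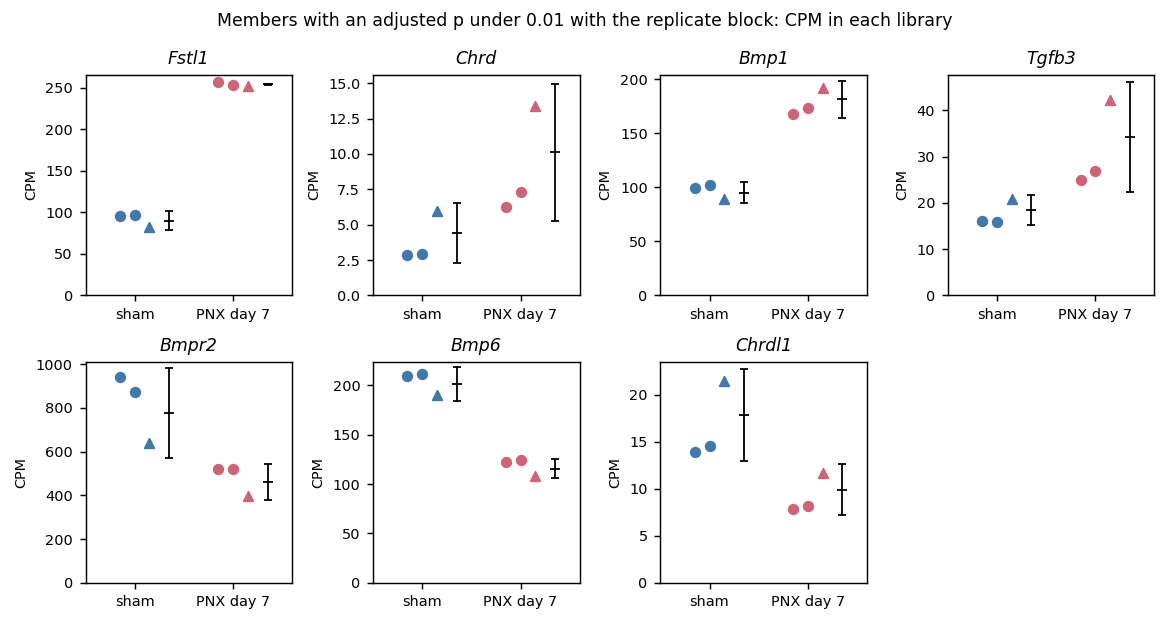
CPM of 7 members with an adjusted p under 0.01 with the replicate block, in each sham (blue) and PNX (red) library on axes from 0; circles are replicates 1 and 2, triangles replicate 3, and the black bar is the mean ± SD of the 2 samples per group. The 3 PNX libraries lie on 1 side of the 3 sham libraries in all 7 genes.

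Other antagonists did not pass. Fst, follistatin, which binds activins, was at 1.61, 1.48 and 1.96 CPM in sham, against 2.65, 2.39 and 2.25 CPM in PNX, without overlap but with a log2 fold change of 0.49 and a 95% interval of -0.03 to 1.01. Fstl3 (0.00, -0.34 to 0.34), Bmper (0.04, -0.26 to 0.34) and Nog (0.17, -0.87 to 1.21) also did not pass, and Nog, the noggin gene, was under 0.5 CPM in every library. Grem1 had 0 to 8 counts per library and was not tested. Over all 57 tested members, 14 had all PNX libraries above all sham libraries (24.6%, against 18.8% of all genes) and 13 had all below (22.8%, against 17.9%). Replicates 1 and 2 are 1 sample here, which makes non-overlap easier than with 3 separate samples.

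Of 12 fibroblast markers, which include collagen genes, none was at 0, 9 increased and 1, Pdgfra, decreased, with a list median of 1.33 and a summed level of 1231 to 1425 CPM in sham, against 3660 to 5082 CPM in PNX. Among 8 mesothelial markers, none at 0, 7 increased, and the sum was 257 to 536 CPM in sham, against 455 to 1093 CPM in PNX. These levels moved with Fstl1, Bmp1, Tgfb3 and Chrd between the groups, and their part in those values was not tested. The summed mesothelial markers were higher in the later deposit of each group, as were Chrd and Tgfb3, whereas Fstl1 was not. The same held for the summed fibroblast markers (1250 and 1413 CPM in sham, 3649 and 5136 CPM in PNX, earlier deposit first). It also held for the summed macrophage, B and T cell and cell division lists, so this order was not particular to the mesothelial markers. Of the other lists, 1 of 12 smooth muscle and pericyte markers, 9 of 11 macrophage markers and 12 of 12 cell division genes increased. In turn, 7 of 7 airway epithelial and 8 of 9 B and T cell markers decreased. Of all genes, 11.5% increased and 10.1% decreased.

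The ID genes, direct targets of BMP Smads, did not pass, with 0 of 4 increased or decreased and a median log2 fold change of -0.01, close to the -0.01 of all genes. Id1 was at 118, 118 and 48.8 CPM in sham, against 115, 113 and 54.5 CPM in PNX. The later deposit was well below the earlier one in both groups, and within deposits PNX and sham lay close together. Its log2 fold change was 0.05 (95% interval -0.17 to 0.27). Id3 was at 168, 169 and 110 CPM in sham, against 170, 165 and 103 CPM in PNX (log2 fold change -0.06, 95% interval -0.24 to 0.13). Id2 had -0.02 (-0.29 to 0.25) and Id4 -0.00 (-0.47 to 0.47). In the blocked fit the intervals of Id1, Id2 and Id3 leave out a log2 fold change of 0.5 in either direction. Without the block their SEs were larger, at 0.546, 0.159 and 0.328, and no intervals are given for that fit, so this limit is stated for the blocked fit only. Leaving out 1 library without the block gave -0.490 to 0.427 for Id1.

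Other target genes gave more varied values. Of 12 genes known to respond to BMP9, BMP10 and ALK1 in ECs, 4 decreased and 0 increased, with a list median of -0.25. The list was not divided into genes that this signal raises and genes that it lowers, so these numbers give no direction of signaling. Hey1, a transcription repressor, was at 119, 119 and 67.3 CPM in sham, against 85.9, 85.5 and 32.1 CPM in PNX (log2 fold change -0.76, SE 0.129, adjusted p = 0.00702). Efnb2, the arterial ephrin-B2 gene, had -0.53 (SE 0.0974, adjusted p = 0.00917), Atoh8 -0.52 (adjusted p = 0.0405) and Apln, the gene for apelin, -0.38 (adjusted p = 0.0167). Tmem100 (-0.28), Hes1 (-0.29) and Gja5 (-0.22) did not pass, and neither did Gja4, at 0.38. The list also includes Cdh5 and Vwf, which are endothelial markers.

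Of 13 TGF-beta target genes, 5 increased and 0 decreased, with a list median of 0.47. Fn1, fibronectin, had a log2 fold change of 1.93 (SE 0.190), Col1a1 2.41 (SE 0.110) and Col1a2 2.12 (SE 0.106), chains of type I collagen, and Tgfbi 1.01 (SE 0.103). Pmepa1, which restrains Smad2 and Smad3, was the other, at 0.47 (SE 0.0912, adjusted p = 0.0118). Col1a1 and Col1a2 are also fibroblast markers. Ctgf, which encodes a matricellular protein, did not pass (log2 fold change -0.34), and neither did the contractile genes Acta2 (0.11) and Tagln (0.14).

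Among 15 genes that store, activate or restrain TGF-beta outside the cell, 7 increased and 1 decreased, with a list median of 0.35. The other 7, stores and activators among them, did not pass. Since the list mixes these functions, its counts give no direction of TGF-beta activation. Fbn1, the fibrillin-1 gene that anchors latent complexes, was at 56.5, 57.4 and 91.5 CPM in sham, against 151, 148 and 196 CPM in PNX (log2 fold change 1.25, SE 0.0924). Decorin (Dcn, 2.19), Fbn2 (2.27), Emilin1 (0.69), Ltbp3 (0.48), Itgav (0.35) and Itgb8 (1.46) also increased. Itgav and Itgb8 encode the subunits of integrin alpha v beta 8, which activates TGF-beta. Itgb8 was low, at 0.347, 0.251 and 1.10 CPM in sham, against 1.02, 1.20 and 2.18 CPM in PNX, so the groups overlapped. Fbn2 had 10 to 32 counts per sham library. Dcn is also a fibroblast marker. Lrrc32, the GARP gene that holds latent TGF-beta at the cell surface, decreased (log2 fold change -0.59, SE 0.101, adjusted p = 0.00703).

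Of 10 other extracellular antagonists or modulators tested, Cd109, a membrane protein that binds TGF-beta, rose from 1.13, 1.06 and 1.66 CPM to 5.85, 5.99 and 9.46 CPM (log2 fold change 2.46, SE 0.170, adjusted p = 0.000113). Kcp increased (1.40) and Crim1 decreased (-0.49). The list was not divided by branch or by direction of effect, so these values give no direction of signaling. Of 8 other ligands and co-factors tested, Nodal increased (1.56, SE 0.408, adjusted p = 0.0348) from under 0.2 CPM. Among 22 intracellular regulators, Fkbp1a, whose protein guards type I receptors, increased (0.36), as did Pmepa1. Nedd4l, a Smad ubiquitin ligase, decreased (-0.39), while the others did not pass. Of all genes, 11.5% increased and 10.1% decreased.

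**Figure D4:**
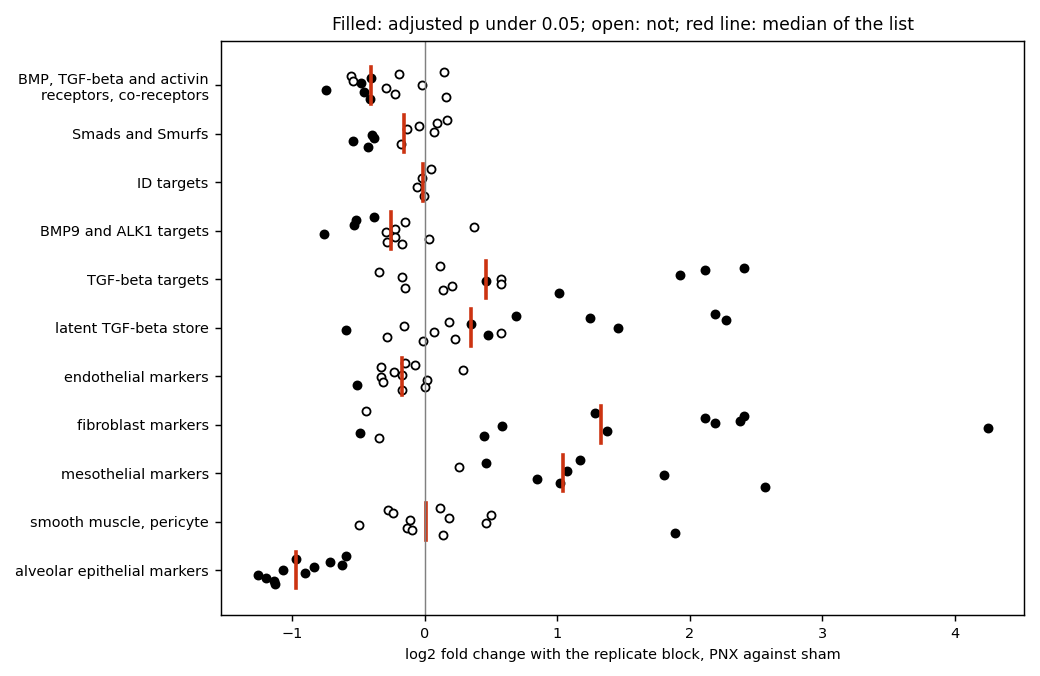
Log2 fold change with the replicate block for each gene of 3 sets of members and 8 other lists; filled points have an adjusted p under 0.05, open points do not, and the red line is the list median. Medians lie at -0.01 for the ID genes, -0.25 for BMP9 and ALK1 targets and 0.47 for TGF-beta targets, beside -0.17 for endothelial and 1.33 for fibroblast markers.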

How the data were processed

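Bulk RNA-seq of lung ECs was analysed from 3 sham and 3 PNX libraries, grouped by their labels. Per the labels and the methods, poly(A) RNA was made into stranded libraries, sequenced as paired ends and aligned to mm10; the submitters' processing notes name STAR, and the rule for counting reads is not given in the sources used here. Whole-number counts per RefSeq transcript were deposited by the authors, with FPKM and TPM values. The deposited FPKM values were not used, and the deposited TPM values served for levels only. Counts of 33068 transcripts were summed to 24063 symbols; 14 members have more than 1 transcript. The chi-square between replicates used only genes with a single transcript and 20 or more counts in the pair.

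The main test was edgeR 4.0.16 (R 4.3.3) with TMM scaling, filterByExpr, glmQLFit and glmQLFTest, with the Benjamini-Hochberg adjustment over all genes; limma 3.58.1 and DESeq2 1.42.0 were alternatives. The fits were also run on simulated data in which sham and PNX had the same difference between deposits. The blocked fit assumes this, so the simulation does not test that assumption. The labels pair the groups by deposit, and sham and PNX shared much of their difference between deposits over 16598 genes (r = 0.610, rho = 0.666; genes are not independent replicates). CPM use TMM-scaled totals. Intervals for log2 fold changes are at 95%, and SEs are the fold divided by the root of F.

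Members named are those past an adjusted p of 0.01 and a log2 fold change of 1 with the block, those under 0.05 with the block, and the 2 with the highest TPM in each role; others are given to account for all members. The members and lists were chosen with earlier results of these data known. Gene positions and exon overlaps come from GENCODE vM21 (GRCm38), and promoters from RefSeq, in which 46 members matched. Values of 1 member and of 1 gene of another list are not reported here; both are included in the counts and medians.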

Additional observations from a re-analysis of the deposited data

How the results depend on the processing

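Without the block, 0 members, 0 other pathway genes and 0 genes in all were called with edgeR under DESeq2 size factors, library size alone, no filter, at least 10 counts per sample, the top transcript, or an adjusted p under 0.05, and with limma-voom. DESeq2 on 4 samples called 1 member, 7 other pathway genes and 587 genes. The 6 libraries as separate replicates gave 1, 4 and 409 with edgeR, and 3, 9 and 927 with DESeq2; these count near-identical libraries apart. With the replicate block the counts were 3, 8 and 849, and at an adjusted p under 0.05 21, 23 and 3584. Within the block, DESeq2 gave 3, 8 and 816, DESeq2 size factors 2, 8 and 624, library size alone 2, 8 and 629, no filter 5, 10 and 985, and, chosen after seeing the data, limma-voom 4, 9 and 921 and the top transcript 2, 8 and 727. Of all block calls 76.0% were higher with TMM, against 86.5% with size factors and 87.4% with library size alone. Fstl1 and Chrd were called in all these block fits, and Gdf6 and Inhba were called with no filter and with limma-voom.

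Leaving out 1 library gave 0 members, 0 other pathway genes and 0 to 2 genes without the block, the 2 coming without PNX replicate 3. With the block it gave 2 to 3 members, 7 to 8 other pathway genes and 485 to 863 genes (485 without PNX replicate 1, 671 and 668 without sham replicate 1 or 2, and 863 without PNX replicate 2). Replicate 3 cannot be left out of a blocked fit, and where 1 sample remains in a group it is assumed to vary like the others. Of 806 alternative log2 fold changes of 31 named members, 35 came to pass the thresholds and 8 changed sign. Leaving out each library in turn, the values ranged over -0.344 to 0.182 for Bmp4, -0.326 to 0.327 for Gdf1, -0.321 to 0.252 for Id3, -0.490 to 0.427 for Id1 and -0.0562 to 0.119 for Smad5, with the sign turned without PNX replicate 3 for Bmp4, Gdf1 and Id3 and without sham replicate 3 for Id1 and Smad5. Id1 was also -0.0170 with 6 libraries in edgeR, -0.0230 with 6 in DESeq2 and -0.000364 with no filter. The cause was not tested. In these fits without the block, leaving out replicate 3 of a group also moved values by over 1.5 times for 7 of the members described as changed: the ranges were -0.581 to -0.129 for Acvr2a, 0.625 to 1.79 for Chrd, -1.16 to -0.541 for Chrdl1, -0.627 to -0.122 for Smad6, -0.563 to -0.131 for Smad7, -0.690 to -0.302 for Smurf2 and 0.487 to 1.09 for Tgfb3. With the block, leaving out replicate 1 or 2 gave -0.434 to -0.365, 1.14 to 1.26, -0.871 to -0.835, -0.409 to -0.388, -0.384 to -0.374, -0.435 to -0.416 and 0.825 to 0.879 in the same order. Acvr2a, Gdf6, Gdf15 and Smad9 passed 0.05 in 10 of 11 block fits. At these depths and with 2 samples per group, members under 1 CPM have wide intervals.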
